A study of Mus musculus with 12 samples.

Results

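Loss of Dscr1 was examined in intact mouse corneas by setting 4 arrays of corneas without Dscr1 against 4 arrays of corneas with Dscr1. The arrays without Dscr1 are the 2 titled Dscr1KO (Dscr-1-/-) and the 2 titled ApoeDscr1DKO, null for Dscr-1 and ApoE and called double KO here. Those with Dscr1 are the 2 wild-type arrays (WT) and the 2 titled ApoeKO (ApoE-/-), so the Apoe label is balanced across the sides. These 8 arrays were taken by title from the 12 of the series. All mice were C57BL/6J, the tissue was the whole cornea separated from enucleated eyes, and each genotype had 2 arrays that the labels call biological replicates. The labels do not state how the null alleles were made or the sex and age of the mice. The other 4 arrays are sutured corneas, 1 array each: Dscr1KO and WT on day 5 after suturing, and Dscr-1 Tg and WT on day 7. They are shown beside the intact values and enter no test.

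Dscr1 is the older name of Rcan1, a protein that binds and restrains calcineurin, the calcium-dependent phosphatase that sends NFAT transcription factors into the nucleus. In endothelial cells Rcan1 is induced by VEGF and limits NFAT-driven activation, and it is known as a brake on vessel growth and inflammation. The cornea is normally free of vessels. Its surface is a stratified epithelium that does not cornify and is marked by keratin 12 and the eye regulator Pax6, its stroma is built by keratocytes, and its inner face is a fluid-pumping endothelium.

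Values are probe-set signals in arbitrary intensity units, where each array has a trimmed mean of 100, and the median signal of an array lay between 15.6 and 21.1. Differences are on the log2(intensity + 3.6) scale, without Dscr1 minus with Dscr1, with standard errors (SE), and p-values are those of the limma fit, adjusted by Benjamini and Hochberg over all 12732 genes tested. A gene rose or fell where its adjusted p was under 0.05. Because 3.6 is added, the difference of a gene near background on one side is understated, and signals below about that value have no order.

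Some arrays stood apart from their labels or from their group. The library labelled ApoeKO replicate 1 read 849.3 for Apoe, close to WT, and the source label of Dscr1KO replicate 2 names ApoE-/- while its title and genotype name Dscr-1-/-. For Apoe Dscr1KO replicate 2 read 316.8, against 1272 on Dscr1KO replicate 1 and 32.5 and 22.7 in double KO. Counts were also computed without these 2 libraries, called doubtful below. Xist, which coats the silenced X, read between 4104 and 5385.2 on Dscr1KO replicates 1 and 2, double KO replicate 1 and both ApoeKO arrays. It read 19.6 or less on double KO replicate 2 and both WT arrays. Each side thus holds both kinds of array, but not in balance. Both Dscr1KO arrays read high and both WT arrays low, so Xist level and Dscr1 loss cannot be told apart between these genotypes. The 3' to 5' signal ratio of Gapdh, a sign of RNA quality, was 1.64, 2.91, 1.17 and 1.20 without Dscr1, against 1.36, 1.32, 1.62 and 1.34 with Dscr1. It was highest on Dscr1KO replicate 2. Replicates were less alike without Dscr1: 1639 genes differed by 2-fold or more between the Dscr1KO replicates and 1160 between the double KO replicates, against 221 in WT and 383 in ApoeKO. The part of these differences in the results was not tested.

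The transcript of the targeted gene was lower, but present, on every array without Dscr1. For Rcan1 the Dscr1KO arrays gave 477.5 and 335.9 and the double KO arrays 379.6 and 331.7, against 630.4 and 649.5 in WT and 668.2 and 581.3 in ApoeKO. The sides did not overlap, and the difference was -0.74 ± 0.14 (adjusted p = 0.00647). A dimmer Rcan1 probe set read between 10.5 and 20 without Dscr1 and, except for 18.5 on ApoeKO replicate 2, between 30.4 and 35.2 with it. The labels do not say which exons were deleted, so the remaining signal does not check the labels. Apoe, the cholesterol carrier whose label is balanced, did not pass the threshold (-1.07 ± 1.19, adjusted p = 0.526).

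Intact corneas without Dscr1 differed from those with Dscr1 across much of the array: 2053 genes rose (16.1%) and 1940 fell (15.2%), 31.4% in all, with a median over all genes of -0.01. The counts of each gene list below stand against these shares. Rises were larger than falls. Among the rises 1304 reached 2-fold and 128 reached 16-fold, against 616 and 3 among the falls, and the median rise was 1.31 against a median fall of -0.79. Falls were more numerous among abundant genes. Of 5299 genes well expressed on both sides, with means past percentile 80 of the probe sets, 505 rose and 1129 fell. This cut leaves out genes that rose from background. All arrays share a trimmed mean of 100, while their medians were 18.2 to 21.1 without Dscr1 and 15.6 to 17 with it. The part of scaling in this split was not tested. With quantile scaling, falls made up 53.6% of all calls. The 4 arrays without Dscr1 were all above the 4 with Dscr1 for 2129 genes (16.7%) and all below for 2253 (17.7%), 34.4% in all. Of the called genes, 1769 rises and 1696 falls had sides that did not overlap. Without the 2 doubtful libraries 1518 genes rose and 1053 fell, and the count of calls, 3993 with all arrays, was 2571. Leaving out 1 array with Dscr1 gave 2402 (WT replicate 1), 2132 (WT replicate 2), 2435 (ApoeKO replicate 1) or 2236 (ApoeKO replicate 2). Among the 5 arrays with high Xist, there were 821 rises and 270 falls, and falls made up 24.7% of the calls, against 48.6% with all arrays.

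Genes beside the deleted one on chromosome 16 were called at a share near that of all genes. Of the 20 protein-coding genes nearest to Rcan1, 10 on each side, 14 were tested, 2 rose, 1 fell and the median difference was -0.05, where 31.4% of all genes were called. Runx1, a transcription factor of blood cells, rose by 1.35 and Cbr3, a carbonyl reductase, by 1.22, while Cbr1, a related reductase, fell by 0.55. Across chromosomes, between 28.3% and 37.8% of tested genes were called.

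The largest rises were genes of differentiating squamous epithelia, among them genes that keratinocytes of skin switch on as they cornify. Krtdap, made by differentiating keratinocytes, read 1697.1 and 7451.7 on the Dscr1KO arrays and 5433.2 and 4807 on those of double KO, against 7.5 and 0.5 in WT and 5.8 and 3.6 in ApoeKO. Every array without Dscr1 was bright and every array with Dscr1 near background (9.16 ± 0.48, adjusted p = 3.84e-05). Rptn, repetin, a calcium-binding protein of the cornified envelope, read 1478, 1715.9, 5134.3 and 3994.8 without Dscr1, against 4.2, 0.7, 1.6 and 5.7 with it (8.73 ± 0.26, adjusted p = 2.99e-06). Sprr3, a small proline-rich protein cross-linked into the envelope, read 2056.5, 8002.4, 5473.6 and 4623.6 without Dscr1, against 10.1, 4.3, 13 and 6.7 with it. The lowest reading without Dscr1 came from Dscr1KO replicate 1 for each of these genes. Sprr1b, of the same family, showed this most: 127.6 on that array, between 2921.5 and 4797.3 on the other arrays without Dscr1, and 2.9 or less with Dscr1 (8.28 ± 0.96, adjusted p = 0.000891).

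**Figure D1:**
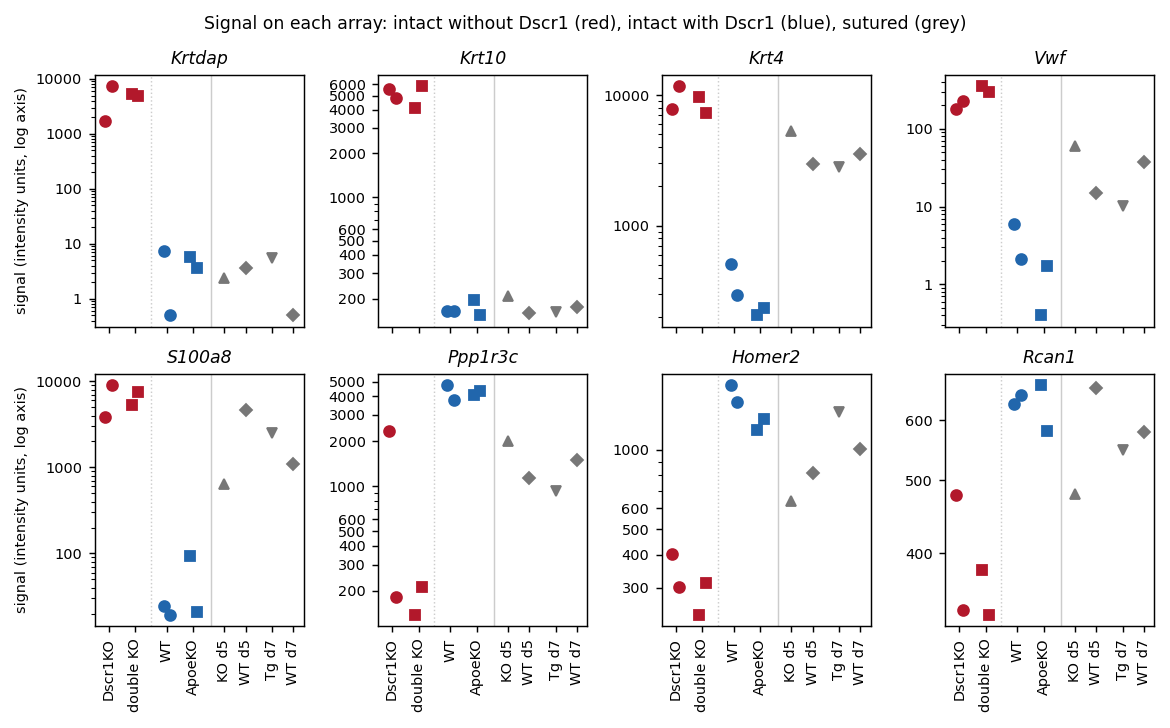
Signal of 8 genes on each array, in intensity units on a log axis. Red points are intact corneas without Dscr1 (circles Dscr1KO, squares double KO), blue points intact corneas with Dscr1 (circles WT, squares ApoeKO) and grey points the 4 sutured corneas, 1 array each. Krtdap lies between 1697.1 and 7451.7 in red and at 7.5 or less in blue and grey, while Ppp1r3c, Homer2 and Rcan1 lie lower in red than in blue.

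The other rises among the 10 largest include further genes of the envelope and suprabasal layers, a protease, a protease inhibitor and a defensin. Sprr2d rose by 8.42 and Sprr2f by 8.29, both small proline-rich envelope proteins, Dmkn, dermokine of the suprabasal epidermis, by 8.03, and the kallikrein protease Klk13 by 8.36. Defb4, a beta-defensin that kills bacteria, read 835.9, 1843.2, 4077.7 and 2660.3 without Dscr1, against 3, 4.2, 2.3 and 3.1 with it (8.24 ± 0.27, adjusted p = 3.14e-06). Serpinb3a, a protease inhibitor of squamous epithelia, read 3251.2, 3188.3, 3668.2 and 4141.5 without Dscr1, against 18.9, 7.6, 6.4 and 4.3 with it. Its 4 readings without Dscr1 lay close together. Small proline-rich and late cornified envelope genes are close copies of each other, and the signal of one probe set may include its neighbours.

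The start-site regions of these genes are shown because members of 1 gene family rose together. Of the 10 genes, 9 have a promoter of 300 bases, from 250 before to 50 after the start, in RefSeq's GRCm38.p6 table. A pair of motifs was searched on both strands: TGANTCA, which AP-1 factors (Fos with Jun) can bind, and TATAAA, the core of a TATA box. Of the 9 genes 6 hold the first and 7 the second, against 7.81% and 13.6% of all 32851 promoters in the table. The 9 are counted by gene, with a match in any of its promoters, and the table by promoter. The 9 were picked as the largest rises and several belong to the Sprr family, so their matches are not independent. Capitals mark the motifs, which do not overlap in the sequences shown. Krtdap lies at chr7:30787655-30787954 on the plus strand, with the first motif beginning 81 and the second 30 bases before the start. Rptn lies at chr3:93393449-93393748 (plus), with them 96 and 31 bases before it. Sprr2d lies at chr3:92338890-92339189 (plus), with them 193 and 29 bases before it, and Sprr3 at chr3:92458671-92458970 (minus), with the TATA motif 33 bases before its start and no TGANTCA in this window.
Krtdap: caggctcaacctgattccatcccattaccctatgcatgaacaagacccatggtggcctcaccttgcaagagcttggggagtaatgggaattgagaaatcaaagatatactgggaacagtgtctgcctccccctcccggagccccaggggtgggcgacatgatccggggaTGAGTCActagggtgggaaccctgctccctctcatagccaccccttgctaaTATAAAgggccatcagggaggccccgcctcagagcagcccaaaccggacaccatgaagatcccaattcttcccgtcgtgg
Rptn: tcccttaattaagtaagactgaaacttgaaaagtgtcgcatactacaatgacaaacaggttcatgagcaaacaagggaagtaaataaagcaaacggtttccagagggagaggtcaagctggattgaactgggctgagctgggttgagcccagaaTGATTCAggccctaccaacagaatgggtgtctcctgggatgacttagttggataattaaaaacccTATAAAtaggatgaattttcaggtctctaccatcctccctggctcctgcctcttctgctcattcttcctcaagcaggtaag
Sprr2d: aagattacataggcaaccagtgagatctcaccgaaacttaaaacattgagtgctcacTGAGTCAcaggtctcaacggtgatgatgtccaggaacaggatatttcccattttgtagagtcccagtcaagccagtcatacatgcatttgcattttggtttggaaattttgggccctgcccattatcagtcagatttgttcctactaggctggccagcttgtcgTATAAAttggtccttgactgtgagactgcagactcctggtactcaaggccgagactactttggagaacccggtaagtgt
Sprr3: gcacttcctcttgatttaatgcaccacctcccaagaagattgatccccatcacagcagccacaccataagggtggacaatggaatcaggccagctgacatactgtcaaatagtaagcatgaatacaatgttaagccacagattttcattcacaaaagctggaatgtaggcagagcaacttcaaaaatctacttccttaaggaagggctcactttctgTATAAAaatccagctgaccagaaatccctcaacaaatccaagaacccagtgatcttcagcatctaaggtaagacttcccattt
Over all called genes the shares were closer to the table. TGANTCA stood in 8.88% of the promoters of genes that rose, 4.95% of those of genes that fell and 5.02% of those of tested genes that did not pass. TATAAA stood in 11.7%, 8.05% and 6.81% of the same promoters. A match describes these letters and is not a site shown to be used.

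Most of the measured cornification programme rose. Of 28 genes of the cornified envelope and granular layer on the array, 27 were tested, 24 rose, 2 fell and the median difference was 5.0, against 16.1% rising and a median of -0.01 over all genes. The counts were 24 and 1 without the doubtful libraries. On all arrays with Dscr1 15 of the 28 stayed below 20, so some passed the filter on low signals only through the other side. With no filter 24 of the 28 rose and 1 fell. The mean level of the list, taken as the log2 difference from the corneas with Dscr1, was between 4.25 and 5.51 on the arrays without Dscr1 and between -0.23 and 0.26 with it. Lor, loricrin, the main protein of the epidermal envelope, read 1862.9, 1944.5, 3186.5 and 3241.9 without Dscr1, against 10.8, 14.1, 15.4 and 14.1 with it (7.18). Krt10, the keratin of suprabasal skin, read 5532.2, 4789.1, 4129.9 and 5826.7 without Dscr1, against 164.6, 164.2, 197.1 and 153.5 with it (4.86 ± 0.15, adjusted p = 2.99e-06). Its partner Krt1 was uneven: 3806, 221.5, 1040.8 and 2418.9 without Dscr1, against 35.5 or less with it. Flg, filaggrin, read 318, 9.5, 1046.5 and 574.1 without Dscr1, so Dscr1KO replicate 2 was near the 7.7 or less of the corneas with Dscr1.

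A few members of this list did not rise. Ivl, involucrin, an early envelope protein, read 44.1, 70, 49 and 45.9 without Dscr1, against 130.8, 99.4, 80.8 and 77.4 with it (-0.84 ± 0.19, adjusted p = 0.0124). Asprv1, a protease that processes filaggrin, averaged 3852 without Dscr1 and 5105 with it and fell by 0.41 (adjusted p = 0.0388), with sides that overlapped. Its call was lost in 12 of the 22 alternative fits described below, with differences from -0.62 to -0.32. Casp14, the caspase of cornification, did not pass (-0.27), and Krt2, a keratin of the upper epidermis, did not exceed 6.3 on any intact array.

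Genes of the epidermal differentiation complex on chromosome 3 rose as neighbours. Between S100a1 and S100a11 the RefSeq table lists 69 protein-coding genes, of which 37 were tested, 29 rose and 2 fell, with a median difference of 4.47. Among them were all 8 tested members of the Lce1 group, at 3.41 to 6.04, and all 8 tested members of the Sprr1, Sprr2 and Sprr3 groups, at 2.73 to 8.60. Some, such as Lce1f and Sprr2i with means of 2.9 and 4 with Dscr1, passed the filter on low signals only through the other side. The S100 end was mixed: S100a8 and S100a9, which together form calprotectin, rose by 7.44 and 5.75 and S100a4 by 2.70, while S100a3 fell by 1.06 and S100a1, S100a6, S100a13, S100a14 and S100a16 did not pass. S100a6 had means of 6523 without Dscr1 and 6119 with it.

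Enzymes that make the lipids of the skin barrier followed. Of 15 tested, 13 rose and 1 fell, with a median of 2.07. Elovl4, which elongates very long fatty acids, read 214.6, 1252.8, 825.8 and 863.1 without Dscr1, against 23.1, 9.7, 18.1 and 7.3 with it (5.29 ± 0.53, adjusted p = 0.000522). Alox12b, a lipoxygenase needed for the barrier, rose by 4.85, Sult2b1, a cholesterol sulfotransferase, by 4.61 and Nipal4, whose loss causes ichthyosis, by 3.18. Lipm, an epidermal lipase, fell by 0.92. Dscr1KO replicate 1 was again lowest, with Alox12b at 14.2 against 179.5 to 299.9 on the other arrays without Dscr1. The rises were 8 when WT replicate 1, WT replicate 2, ApoeKO replicate 1 or ApoeKO replicate 2 was left out, and 10 without the doubtful libraries.

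Genes that keratinocytes raise in wounds and stress also rose, 16 of 20, with no fall and a median of 1.79. The counts were 14 and 0 without the doubtful libraries. Defb3, another defensin, read 552.8, 515.8, 2302.1 and 2490.7 without Dscr1, against 5 or less with it, and was brighter in double KO than in Dscr1KO. S100a8 read 3892.7, 9010.6, 5361.4 and 7603.8 without Dscr1, against 24.6, 19.5, 94.3 and 21.1 with it. The wound keratins divided: Krt17 rose by 6.18 and Krt16 by 4.81, while Krt6a, already at 4728 to 6859 with Dscr1, did not pass (0.21) and Krt6b did not pass either (0.17). S100a8, S100a9 and the defensins can also come from leukocytes.

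**Figure D2:**
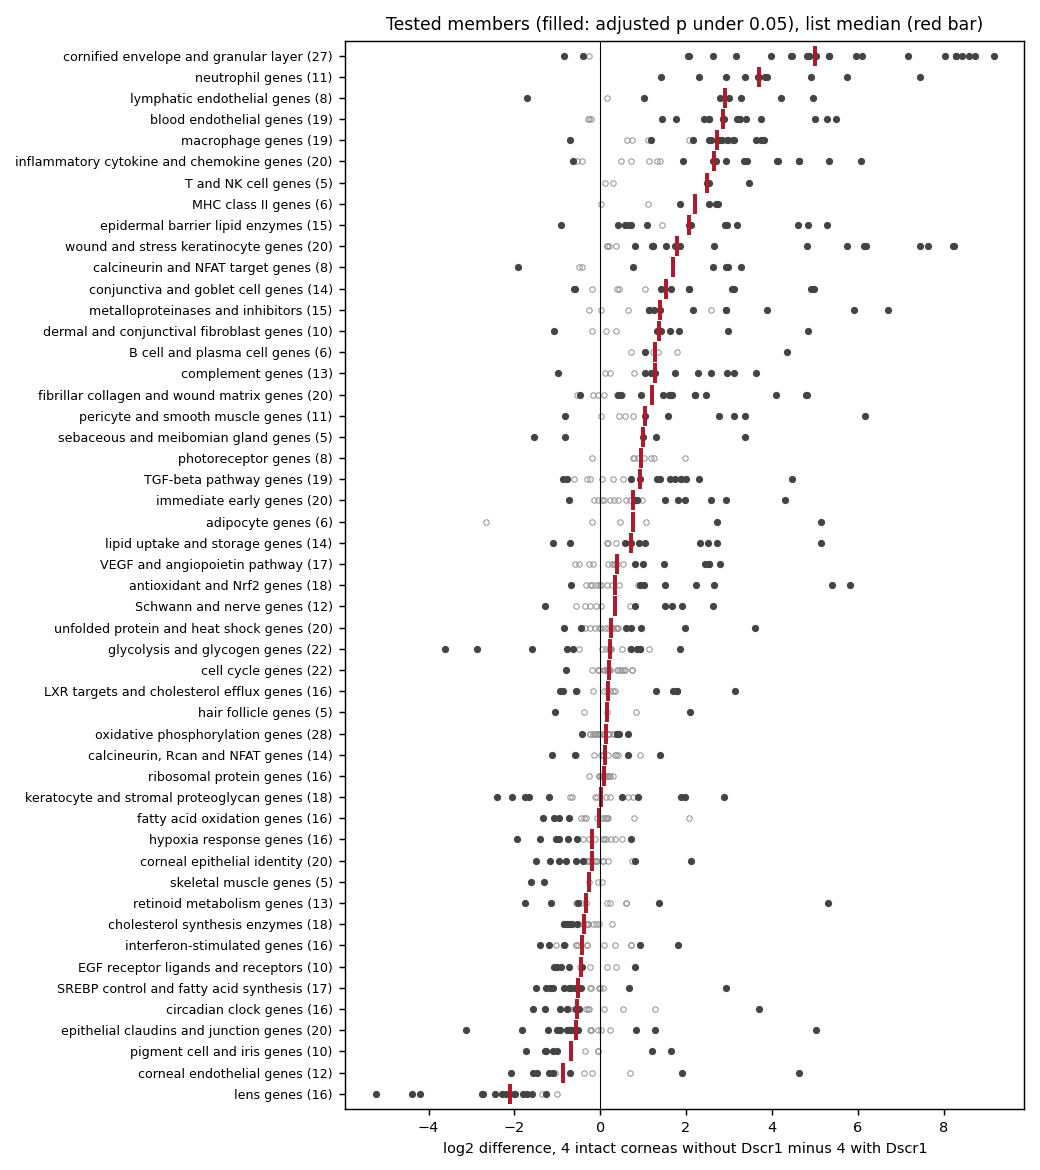
Log2 difference, 4 intact corneas without Dscr1 minus 4 with Dscr1, for the tested members of each gene list with at least 5 of them (number in brackets). Filled points passed the threshold, open points did not, and the red bar is the list's median, from 5.0 for the cornified envelope to -2.10 for lens genes.

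Corneal epithelial identity genes stayed abundant, with falls among them. Of 20 genes 2 rose and 6 fell, with a median of -0.20, against 16.1% rising and 15.2% falling over all genes. Krt12, the cornea's own keratin, read 7192, 10080.3, 7841.2 and 6034.1 without Dscr1, against 7260.9, 5291.1, 7884 and 6802.8 with it, and did not pass (0.18, adjusted p = 0.449). Pax6, the eye's master regulator, read 2458.6, 1008.2, 1696.4 and 1133.1 without Dscr1, against 3261.1, 3118.4, 3440.7 and 3600.6 with it (-1.18 ± 0.27, adjusted p = 0.0138). Slurp1, a secreted anti-inflammatory peptide of the corneal surface, read 4310, 2349.2, 1282.8 and 1691.1 without Dscr1, against 6236.7, 5069.1, 6914.1 and 6494.3 with it (-1.50 ± 0.20, adjusted p = 0.00166). Elf3, an epithelial transcription factor, fell by 0.96. Krt14, the basal keratin, went the other way, at 4200.4, 8672.1, 5525.7 and 5065.2 without Dscr1, against 958.1, 761.1, 2615.9 and 1532.9 with it (2.11 ± 0.26, adjusted p = 0.00111). The falls were 3 without the doubtful libraries, 2 without WT replicate 1 or ApoeKO replicate 2, 3 without WT replicate 2 or ApoeKO replicate 1 and 4 without double KO replicate 1.

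Junction genes fell more often than they rose, 11 against 3 of 20, with a median of -0.56. Over all genes 15.2% fell and 16.1% rose. Cldn10, a claudin, read 195, 7.1, 89.3 and 139.2 without Dscr1, against 740.6, 635.5, 511.1 and 677.2 with it (-3.13 ± 0.78, adjusted p = 0.0192). Its call was lost when double KO replicate 1, or any single WT or ApoeKO array, was left out (adjusted p from 0.0538 to 0.0684). The Cldn10 call was also lost on the arrays with high Xist (-3.18) and with the Xist level as a covariate (-2.89, adjusted p = 0.0754). Dsg1a, a desmoglein of desmosomes, fell by 1.83, while Dsc1, the desmocollin of cornifying layers, rose by 5.02, from readings of 393.6 to 1858.4 without Dscr1 and 17.6 to 26.7 with it. The falls were 7 without WT replicate 1, WT replicate 2 or ApoeKO replicate 2. Of 10 genes of the EGF receptor family and its ligands 5 fell and 1 rose, against the same shares over all genes. Egfr, which drives corneal epithelial renewal, read 814.6, 529.3, 334.2 and 463.5 without Dscr1, against 1014.6, 1038.5, 1111.9 and 1143.8 with it (-1.08 ± 0.17, adjusted p = 0.00287).

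Markers of neighbouring epithelia moved with these results. Of 14 tested genes of conjunctiva and goblet cells, 8 rose and 2 fell, with a median of 1.54, and the summed signal of the 19 on the array was 23722 to 31857 without Dscr1 and 13562 to 18357 with it. Krt4, the mucosal keratin of conjunctiva, read 7769.4, 11727.8, 9577.1 and 7276.4 without Dscr1, against 506.3, 294.4, 205.8 and 233.9 with it (4.92 ± 0.21, adjusted p = 1.45e-05). Muc5ac, the goblet cell mucin, read 354.8, 102.6, 388.7 and 106.7 without Dscr1, against 7.5 or less with it (4.98), and the goblet cell factor Spdef rose by 2.07. Goblet-related genes were not all present: Tff3, Foxa3, Gcnt3 and Bpifa1 did not exceed 11.3 on any intact array. Muc4 and Aqp5, a mucin and a water channel of the ocular surface, fell by 0.61 and 0.60. Of 18 hair follicle genes on the array, 12 stayed below 20 on all arrays without Dscr1, and the hair keratins Krt71, Krt25, Krt27, Krt28, Krt33a, Krt33b, Krt34 and Krt35 did not exceed 9.7 there. The summed hair follicle signal was 192.6 to 322.1 without Dscr1 and 267 to 342.5 with it. The part of conjunctival tissue in the cornification result was not tested, and in whole-cornea RNA fewer cells of a type and less RNA per cell cannot be told apart.

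Transcripts of blood vessels were present in every cornea without Dscr1. Of 19 blood endothelial genes tested 16 rose and none fell, with a median of 2.86, and 16 rose in each fit that left out 1 array. Of the 21 on the array, 16 stayed below 20 on all arrays with Dscr1, and with no filter 17 rose and none fell. Some thus passed the filter on low signals only through the side without Dscr1. Vwf, von Willebrand factor, read 182.3, 230.5, 355.3 and 296.9 without Dscr1, against 6, 2.1, 0.4 and 1.7 with it (5.49 ± 0.23, adjusted p = 1.45e-05). Plvap, of fenestrated endothelium, read 280, 403.4, 421.3 and 392.8 without Dscr1, against 13, 9.8, 15.2 and 0.7 with it (5.01). Aplnr, the apelin receptor of sprouting vessels, was uneven at 350.4, 866.6, 59.4 and 181.3 without Dscr1, against 7.1 or less with it (5.28). Kdr, the main VEGF receptor, did not follow (59.9 to 65.4 without Dscr1, against 67.5 to 86.5 with it, -0.27), and Erg and Apln did not pass either.

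Pericyte and lymphatic genes moved likewise. Rgs5, of pericytes, read 758.7, 2778.3, 2330.9 and 2099.7 without Dscr1, against 45.3, 23.1, 10.6 and 17 with it (6.18 ± 0.40, adjusted p = 8.24e-05). In its list 6 of 11 genes rose and 1, Notch3, fell by 0.82. Of 8 lymphatic genes 6 rose and 1 fell. On all arrays with Dscr1 6 of the 9 on the array stayed below 20, and with no filter 7 of the 9 rose and 1 fell. Lyve1, the hyaluronan receptor of lymphatic vessels and of some macrophages, read 46.4, 138.3, 597.6 and 192.9 without Dscr1, against 4.8 or less with it (4.96), and Mmrn1, multimerin, rose by 3.29. Without the doubtful libraries the counts were 16 rises for blood endothelium, 5 rises and 1 fall for pericytes and 6 rises for lymphatics.

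Several receptors of vessel growth rose, while Vegfa itself did not pass. Of 17 genes of the VEGF and angiopoietin pathway 7 rose and none fell, with a median of 0.38. Over all genes 16.1% rose and 15.2% fell. The receptors Flt4, Flt1 and Tek rose by 2.79, 2.54 and 2.53, and the Tek ligand Angpt1 by 2.45. Vegfa did not pass (0.34, adjusted p = 0.356), at 47.9 to 100.3 without Dscr1 and 37.1 to 85.4 with it, while the lymphatic ligands Vegfd and Vegfc rose by 1.50 and 0.99.

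Genes of the calcineurin pathway that Rcan1 restrains were called about as often as all genes. Of 14 for calcineurin, its partners and NFAT factors, 2 rose and 2 fell, with a median of 0.12, against 16.1% rising and 15.2% falling over all genes. Fkbp1a, the FK506-binding protein, read 723.1, 678.5, 833 and 761 without Dscr1, against 273.4, 320.1, 305.1 and 243.3 with it (1.38 ± 0.12, adjusted p = 0.000286). Ppp3ca, the catalytic subunit of calcineurin, fell by 0.58 and Nfatc2 by 1.12, while Nfatc1, which amplifies its own expression in other cells, rose by 0.64 (adjusted p = 0.0482). Nfatc1 lost its call in 13 of the 22 alternative fits described below, with differences from 0.45 to 0.82. The related genes Rcan2 (0.92) and Rcan3 (-0.57) did not pass. Of 14 genes known as calcineurin or NFAT targets on the array, 8 were tested, 5 rose and 1 fell, with a median of 1.70. With no filter 6 of the 14 rose and 1 fell, with a median of 0.56. Some, such as Tnfsf11 with a mean of 2.1 with Dscr1, passed the filter on low signals only through the other side. Icam1, an adhesion molecule for leukocytes, read 458.8, 343.3, 230 and 226.8 without Dscr1, against 24.5, 21.1, 64 and 44.8 with it (2.97 ± 0.17, adjusted p = 4.52e-05), Tnfsf11, the osteoclast factor RANKL, rose by 3.27, and Egr3 by 2.93. F3, tissue factor, fell by 1.91, at 252.3 to 973.2 without Dscr1 and 1617.5 to 1780.1 with it.

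Leukocyte transcripts rose as well. Every one of the 11 tested neutrophil genes rose, with a median of 3.70, and 10 did so without the doubtful libraries. With no filter all 12 on the array rose, and 5 of the 12 stayed below 20 on all arrays with Dscr1. Clec4d, a myeloid lectin, read 263.3, 394.4, 597.6 and 725.5 without Dscr1, against 5.2, 5.4, 49.9 and 9.5 with it (4.92). Of 19 macrophage genes 14 rose and 1 fell, with a median of 2.72. Csf1r, the growth factor receptor of macrophages, read 2225, 1653, 1027.5 and 1427.9 without Dscr1, against 147.5, 127, 326 and 158.5 with it (3.08 ± 0.24, adjusted p = 0.000184). The macrophage list was lowest without Dscr1 on Dscr1KO replicate 2 (1.62) and highest with Dscr1 on ApoeKO replicate 1 (0.79). Mast cell genes were led by Hdc, the histamine enzyme, up by 4.73, and Cpa3, a mast cell protease, up by 3.62, while Kit, which melanocytes also use, fell by 2.52. Of 9 mast cell genes on the array 8 stayed below 20 on all arrays with Dscr1. With no filter 6 of the 9 rose and 1 fell.

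Lymphocyte genes were dimmer and depended on single arrays. Of 15 T and NK genes on the array 5 passed the filter on low signals, some of them only through the side without Dscr1, and 3 rose. With no filter 9 of the 15 rose, and 1 of the 5 rose without WT replicate 2 or ApoeKO replicate 2. Cd3g, a T cell receptor subunit, read 93.5, 21.4, 11.1 and 37.3 without Dscr1, against 6.3 or less with it (2.50). Jchain, of antibody-secreting cells, read 1075.9, 20.1, 818.6 and 95.5 without Dscr1, against 9.6 or less with it (4.36 ± 1.14, adjusted p = 0.024). Of 6 B cell genes 2 rose, or 6 without Dscr1KO replicate 2 and none without WT replicate 1, WT replicate 2 or ApoeKO replicate 1. With double KO replicate 1 or ApoeKO replicate 2 left out 1 rose. Class II antigen presentation was brightest on Dscr1KO replicate 1 for H2-Aa, which read 2151.9, 908.5, 348.6 and 1310.7 without Dscr1, against 129.5, 81, 218.8 and 203.6 with it (2.69), and 4 of 6 such genes rose.

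Of 27 inflammatory cytokine and chemokine genes on the array 20 were tested, 12 rose and 1 fell, with a median of 2.65. With no filter 16 of the 27 rose and 1 fell, with a median of 1.93. Some, such as Cxcl3 with a mean of 7.9 with Dscr1, passed the filter on low signals only through the other side. Cxcl5, which draws neutrophils, read 580.7, 634.3, 341.5 and 2221.2 without Dscr1, against 18.9 or less with it (6.07 ± 0.58, adjusted p = 0.000422). Cxcl1 and Cxcl2, which do so too, rose by 4.62 and 4.63, and Il1b by 4.15. Saa3, an acute-phase protein, rose by 5.32 with overlapping sides, since ApoeKO replicate 1 read 2300.5, against 45.9 or less on the other arrays with Dscr1. Il18 fell by 0.65. Of 16 interferon-stimulated genes 2 rose and 3 fell, a share near the 31.4% over all genes. Their median was -0.42, but -1.11 for double KO minus ApoeKO and 0.31 for Dscr1KO minus WT. Oasl1, an antiviral protein, fell by 1.41, and Irf1, which switches on many such genes, read 1057.1, 461.5, 391.2 and 544.9 without Dscr1, against 1314.9, 1166.2, 1348.5 and 1391.1 with it (-1.19). The falls were 8 without Dscr1KO replicate 1 and 2 without any one of double KO replicate 1 or the WT and ApoeKO arrays. Of 13 complement genes 9 rose and 1 fell, Cfb by 3.62, with 6 rises when WT replicate 2 was left out.

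**Figure D3:**
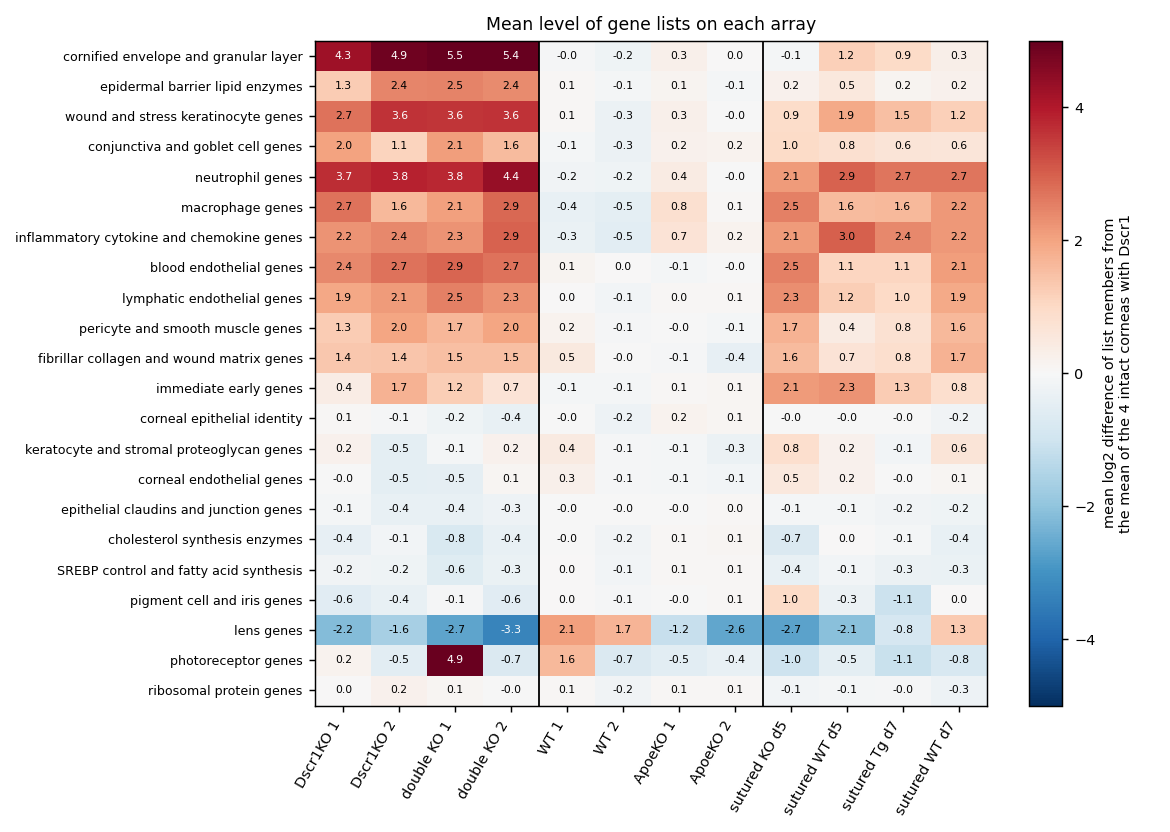
Mean log2 difference of each list's tested members from their mean in the 4 intact corneas with Dscr1, on every array (columns: intact without Dscr1, intact with Dscr1, then sutured). The cornified envelope row reads 4.25 to 5.51 on intact arrays without Dscr1 and -0.08 to 1.19 on the sutured arrays, whereas the blood endothelial row reads 2.42 to 2.90 and 1.06 to 2.50.

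Transcripts of matrix and its proteases also rose. Of 20 fibrillar collagen and wound matrix genes 13 rose and 1 fell, with a median of 1.21. Col3a1, the collagen of vessels, skin and scars, read 4275.3, 6194.2, 5739.4 and 5499 without Dscr1, against 300.3, 155.9, 424.6 and 60.2 with it (4.82 ± 0.54, adjusted p = 0.000759). Postn, periostin, of wounded matrix, read 1987.1, 1791.4, 2832.6 and 2710.5 without Dscr1, against 193.8, 118, 150.3 and 82.8 with it (4.10 ± 0.22), and Tnc, tenascin C, rose by 4.80. Tgfbi, a major protein of the corneal stroma, fell by 0.47 with overlapping sides. Its call was lost in 11 of the 22 alternative fits described below, with differences from -0.61 to -0.36. Of 18 metalloproteinases and inhibitors on the array 15 were tested, 10 rose and none fell. With no filter 10 of the 18 rose and none fell. Mmp13, a collagenase, read 2712.1, 920.6, 3238.3 and 1434.6 without Dscr1, against 4.5, 1.2, 182.6 and 10.5 with it (6.69 ± 0.77). Mmp3, stromelysin, rose by 5.91, with ApoeKO replicate 1 at 767.7 and the other arrays with Dscr1 at 94 or less. In the TGF-beta list 11 of 19 genes rose and 2 fell, with Ltbp2 up by 4.47 and the receptor Tgfbr1 down by 0.88.

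Stromal and endothelial genes of the cornea itself divided. Their counts, and those of pigment cell genes, stand against 16.1% rising and 15.2% falling over all genes. Of 18 keratocyte genes 5 rose and 5 fell, with a median of 0.02, and 4 rose and 1 fell without the doubtful libraries. Kera, keratocan, the keratan sulfate core protein that marks keratocytes, read 1388.2, 853.4, 441.3 and 1677 without Dscr1, against 4992.8, 3451.6, 3783.2 and 4069.1 with it (-2.06 ± 0.39, adjusted p = 0.00654). Chst5, a corneal sulfotransferase for keratan sulfate, fell by 2.42, while Lum, lumican, did not pass (0.14) and Omd, osteomodulin, rose by 2.87. Of 12 tested corneal endothelial genes 6 fell and 2 rose, with a median of -0.88. Col8a1, a collagen of Descemet's membrane, read 407.4, 119.8, 55.2 and 275.4 without Dscr1, against 835.9, 758, 558 and 742.8 with it (-2.08 ± 0.52, adjusted p = 0.0204). The pump genes Slc4a4 and Slc4a11, of bicarbonate and fluid transport, fell by 1.58 and 1.47, whereas Car2, a carbonic anhydrase, rose by 4.63. The falls were 2 without WT replicate 1, WT replicate 2 or ApoeKO replicate 2 and 3 without ApoeKO replicate 1, and Col8a1 lost its call in each of these fits and without the doubtful libraries (adjusted p from 0.0532 to 0.098). On the arrays with high Xist Col8a1 also lost its call (-2.49). Of 10 pigment cell genes 5 fell and 2 rose. Tyrp1, a melanin enzyme, read 48.5, 73.9, 120.3 and 48.7 without Dscr1, against 256.1, 216.5, 207.7 and 256.5 with it (-1.73).

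The largest falls were lens crystallins, which were bright mainly in WT. Crygd, a gamma crystallin, read 3.8 or less without Dscr1, against 2132.3 and 1472.1 in WT and 50.8 and 10.6 in ApoeKO. Of 16 lens genes 14 fell, with a median of -2.10, yet the list's mean level ranged from -3.29 to -1.64 without Dscr1 and from -2.58 to 2.06 with it, and 3 genes had sides that did not overlap. With Dscr1 the score was 2.06 and 1.68 in WT and -1.16 and -2.58 in ApoeKO, so the ApoeKO arrays lay near or within the range without Dscr1. Photoreceptor genes, none of which passed, were bright on double KO replicate 1, where their summed signal was 7526 over 14 genes, the highest among arrays without Dscr1, whose lowest was 84.9, against 85 to 601 with Dscr1. Sag, the rod arrestin, read 1324.4 on that array. When double KO replicate 2 was left out, 6 of the 8 tested rose.

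Outside the lens crystallins, the largest fall was that of Ppp1r3c. This gene, which brings a phosphatase to glycogen and favours its synthesis, read 2327.5, 183, 139.1 and 213.7 without Dscr1, against 4731.1, 3780.1, 4045.1 and 4312.9 with it (-3.63 ± 0.67, adjusted p = 0.006). Pygl, glycogen phosphorylase, read 404.9, 78.6, 77.9 and 183.9 without Dscr1, against 1325.2, 1350.6, 925.1 and 861.9 with it (-2.87 ± 0.48, adjusted p = 0.00393), and the branching enzyme Gbe1 fell by 1.59. In the list of glycolysis and glycogen genes 5 of 22 fell and 5 rose, the rises led by Hk2, hexokinase 2, at 1.87. The counts were 3 and 3 without WT replicate 2 or ApoeKO replicate 2. Both this list and the next stand against 15.2% falling and 16.1% rising over all genes. Of 16 hypoxia response genes 6 fell and 1 rose, with Car9, a carbonic anhydrase induced by low oxygen, down by 1.93 and Egln3, an oxygen-sensing hydroxylase, by 1.42. The falls were 3 without WT replicate 1, ApoeKO replicate 1 or ApoeKO replicate 2.

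Other falls with sides that did not overlap included Frem2, a basement membrane protein of developing epithelia (-3.23 ± 0.45), Enpep, an aminopeptidase of angiotensin (-2.96), and Npy, neuropeptide Y (-2.91). Npy was uneven without Dscr1, at 277.2, 45.4, 30.3 and 306.3, against 702.8 to 993.1 with it, and lost its call without any one of the WT or ApoeKO arrays (adjusted p from 0.0637 to 0.0719) and without the doubtful libraries (0.127). With the Xist level as a covariate Npy also lost its call (-1.96, adjusted p = 0.0507). Among abundant genes Dkk2, a Wnt antagonist needed to keep the ocular surface corneal rather than skin in mice, read 291.2, 54, 98.8 and 231.3 without Dscr1, against 911.2, 771.3, 601.2 and 609.7 with it (-2.33 ± 0.49, adjusted p = 0.00956). Homer2, a scaffold protein that binds calcium channels and competes with calcineurin for NFAT, read 401.9, 301.5, 236.9 and 311.5 without Dscr1, against 1757.1, 1521.3, 1185.5 and 1303.7 with it (-2.20 ± 0.14, adjusted p = 8.75e-05). Scin, an actin-severing protein, read 1089.7, 490.6, 279.4 and 379.2 without Dscr1, against 2032.5 to 2161.1 with it (-2.10). Adtrp, Slc26a7, Ces1d and Fam169a fell by 2.31, 2.38, 2.48 and 2.65. Of these, Ces1d, a carboxylesterase, lost its call without WT replicate 2 (-2.38), without ApoeKO replicate 2 (-2.46) and on the arrays with high Xist (-2.31).

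**Figure D4:**
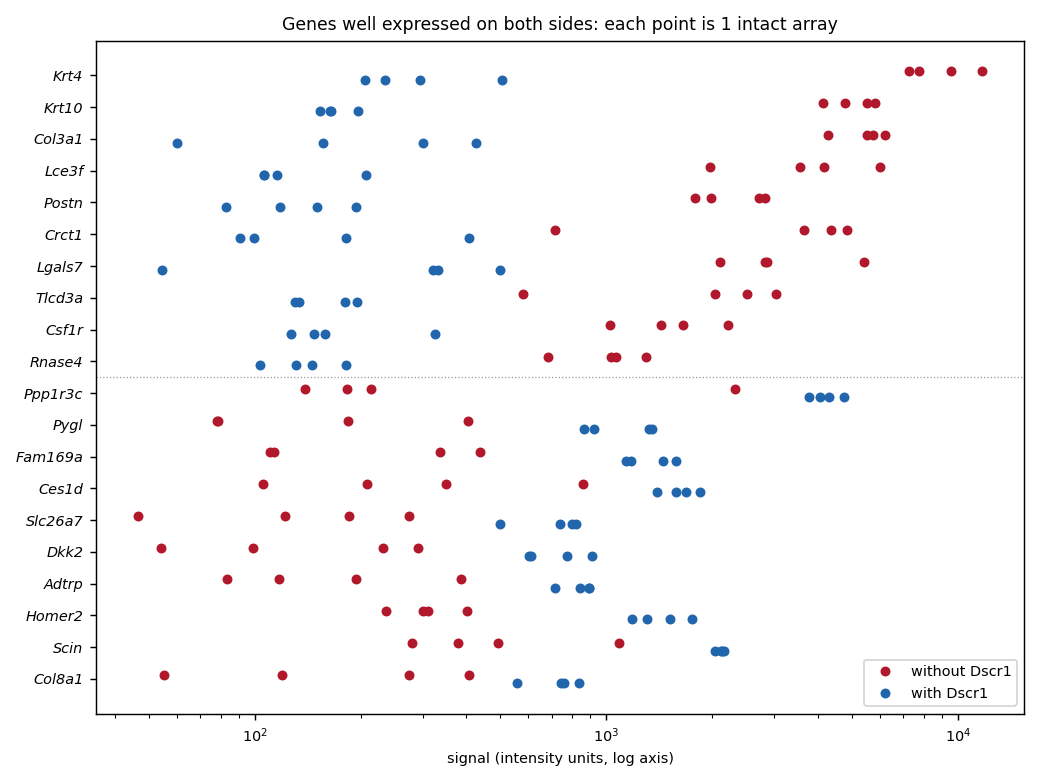
Signal, in intensity units on a log axis, of the 10 largest rises (upper rows) and 10 largest falls (lower rows) among genes well expressed on both sides. Each point is 1 intact array, red without Dscr1 and, just below, blue with Dscr1; Homer2 lies between 236.9 and 401.9 in red and between 1185.5 and 1757.1 in blue.

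Lipid genes moved by class. Of 18 cholesterol synthesis enzymes none rose and 7 fell, with a median of -0.37. Tm7sf2, a sterol reductase, read 187.7, 198.1, 143.1 and 151.5 without Dscr1, against 283.9, 288.1, 350.1 and 310.7 with it (-0.85 ± 0.11, adjusted p = 0.00131). Sc5d, Nsdhl and Fdps, which act in the same chain, fell by 0.83, 0.77 and 0.75. The falls were 4 without ApoeKO replicate 2 and 6 without the doubtful libraries. In the list of SREBP control and fatty acid synthesis 10 of 17 genes fell and 2 rose, with a median of -0.53. Insig1, which holds SREBP in the endoplasmic reticulum, read 1157.8, 608.1, 575 and 618.5 without Dscr1, against 1425.8, 1369.7, 1799.1 and 1859.3 with it (-1.17 ± 0.19, adjusted p = 0.00351). Fads1, a desaturase, and Acss2, which makes acetyl-CoA, fell by 1.49 and 1.27, but Me1, malic enzyme, read 274.6, 436.1, 378.8 and 399.5 without Dscr1, against 44.8, 35.4, 58.8 and 45.4 with it (2.92 ± 0.18, adjusted p = 7.88e-05).

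Genes of cholesterol export and lipid uptake are read against the same shares, 16.1% rising and 15.2% falling. In the LXR and efflux list 5 of 16 rose and 3 fell, with a median of 0.18. Cyp7b1, an oxysterol hydroxylase, read 178.8, 263.9, 301.2 and 341.6 without Dscr1, against 19.2, 14.5, 40.7 and 41.9 with it (3.15 ± 0.17, adjusted p = 4.11e-05), and the export pump Abca1 rose by 1.69, while Abcg1, a related pump, did not pass (-0.53). In lipid uptake and storage 8 of 14 rose and 2 fell, with a median of 0.71, led by Fabp4, a carrier of fatty acids found in adipocytes, macrophages and endothelium, up by 5.14, and Lpl, lipoprotein lipase, up by 2.73. The rises were 3 without WT replicate 1, WT replicate 2 or ApoeKO replicate 2 and 6 without ApoeKO replicate 1. Of 11 adipocyte markers on the array 6 were tested and 2 rose, Fabp4 and Lpl, while Adipoq, Cidec and Lep did not exceed 5.8 on any intact array. Their summed signal was 829.5 to 5361.9 without Dscr1 and 6220.9 to 7520.5 with it. Most of that sum was Car3, a carbonic anhydrase, at 4936.6, 281.6, 254.1 and 3614.2 without Dscr1, against 7390.7, 6094, 6534.1 and 7214.7 with it. The macrophage and endothelial rises above moved with these genes, and their part was not tested. Of 16 fatty acid oxidation genes 4 fell, led by their regulator Ppara (-1.34), or 2 without WT replicate 2.

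Stress and timing lists are read against 16.1% rising and 15.2% falling over all genes. Of 18 antioxidant genes 7 rose and 1 fell, with Gpx2, an epithelial glutathione peroxidase, at 315.9, 415.3, 1101.9 and 945.4 without Dscr1, against 18.3, 13.7, 8.3 and 6.3 with it (5.40 ± 0.17, adjusted p = 2.99e-06), and Gpx3, its secreted relative, up by 5.83. Of 20 immediate early genes 8 rose and 1 fell. Nr4a1, an early response to stimulation, read 44.9, 542.1, 333.8 and 96.9 without Dscr1, against 9.7 or less with it (4.31 ± 0.74). The rises were 15 without Dscr1KO replicate 1, 3 without WT replicate 1 and 4 without WT replicate 2 or ApoeKO replicate 2. Of 16 clock genes 6 fell and 1 rose. Dbp, an output of the clock, read 749.1, 749.2, 533.8 and 846.4 without Dscr1, against 1349, 1668.7, 2159.2 and 1912.7 with it (-1.29), while Nfil3, its opponent, rose by 3.70. The labels give no time of day for collection, and 3 clock genes fell without WT replicate 2. Of 13 retinoid genes 2 rose and 3 fell, near the shares over all genes, with no fall when any WT or ApoeKO array was left out. Crabp2, which carries retinoic acid, rose by 5.31, while Aldh1a1, a retinaldehyde dehydrogenase abundant in the cornea, fell by 1.75.

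Cell division and protein synthesis genes served as a contrast. Of 22 cell cycle genes none rose and 1, Ccnd1, cyclin D1, fell by 0.79, with a median of 0.20. Without Dscr1KO replicate 1, 7 rose, and without Dscr1KO replicate 2, 1 rose. Of 16 ribosomal protein genes none passed with all arrays, and the median was 0.08, while 1 rose without double KO replicate 1 and 1 fell without double KO replicate 2.

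The effect of Dscr1 loss was compared between the Apoe labels by the interaction of the 2 genotypes. One gene passed, Crygf (6.86, adjusted p = 0.0214), which is 0.00785% of the genes tested, and 963 had an unadjusted p under 0.05. Crygf differed by -0.77 between double KO and ApoeKO and by -7.64 between Dscr1KO and WT, readings of 3.9 or less without Dscr1 standing against 12.5 and 5.8 in ApoeKO and 1522.3 and 884.9 in WT. Krtdap differed by 9.28 and 9.04 in the same order, Krt10 by 4.79 and 4.94, Homer2 by -2.18 and -2.22 and Ppp1r3c by -4.57 and -2.68. Among all rises 16 had opposite signs in the 2 labels, and among all falls 14. With 2 arrays per genotype, a gene that did not pass is not shown to respond alike. Dscr1KO and WT also differed in Xist level on every array, which enters their difference and the interaction.

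**Figure D5:**
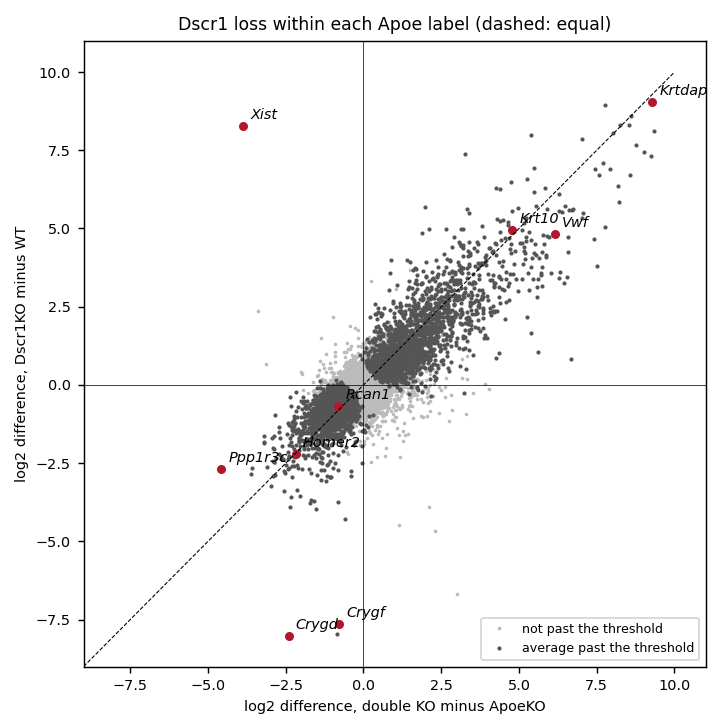
Log2 difference between double KO and ApoeKO (horizontal) and between Dscr1KO and WT (vertical) for each of the 12732 genes tested, dark where the average of both passed the threshold. Krtdap, Krt10 and Homer2 lie near the dashed line of equal differences, Crygf and Crygd far below it, and Xist, which did not pass, lies at 8.27 on the vertical axis and -3.88 on the horizontal.

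The sutured corneas were read beside the intact ones. On the sutured Dscr1KO array 541 genes (4.25%) were at least 2-fold above, and 254 (1.99%) at least 2-fold below, the sutured WT array of the same day. Of the genes that rose in intact corneas without Dscr1, 302 (14.7%) were at least 2-fold higher on the sutured Dscr1KO array and 91 (4.43%) lower. Of the genes that fell, 14 (0.722%) were at least 2-fold lower and 31 (1.60%) higher. With 1 array each there is no replicate check of these differences.

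As a list, cornification genes were lower on the sutured Dscr1KO array than on the sutured WT array of day 5, though Krt10 was higher. Over the 27 tested the median difference was -0.74, and the mean level was -0.08 and 1.19 on these arrays, the other direction from the intact corneas. Krtdap, Rptn and Defb4 were near background on both arrays, at 2.4, 4.1 and 2.4 on the sutured Dscr1KO array and 3.6, 1.3 and 0.9 on the sutured WT array of day 5. Krt10 read 207.5 and 159.5 on these arrays and Lor 8.6 and 12.6, all near the levels of intact corneas with Dscr1. The mean level of blood endothelial genes was 2.50 on the sutured Dscr1KO array and 1.06 on the sutured WT array, and Vwf read 59.5 and 15. The mean level of matrix genes was 1.57 and 0.67, with Col3a1 at 3775.3 and 606.1 and Postn at 1071.7 and 253.1. Rcan1 read 479.1 and 663.6, so the array labelled Dscr1KO was also the lower one for the targeted gene. Homer2 read 640.7 and 814.5, and Ppp1r3c 2020.5 and 1130.4. S100a8 was lower on the sutured Dscr1KO array, at 642.3 against 4596.4.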

How the data were processed

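RNA of whole mouse corneas was hybridised to Affymetrix arrays, from 100 ng of total RNA, per the labels' protocols. The deposited intensity values are 1 linear signal per probe set and array, scaled by the authors to a trimmed mean of 100, as the values show. The software is not named in those labels.

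Of 45101 probe sets, 34958 have 1 gene symbol in the platform annotation, 932 have several and 9211 none. Each of 18194 genes was represented by its brightest probe set. A gene was tested where its mean log2 signal reached percentile 40 over the probe sets, with Rcan1 and Apoe exempt, which left 12732. A log2 value was computed from each deposited intensity after adding 3.6, the 20th percentile of signals. limma 3.58.1 in R 4.3.3 fitted 4 genotype means on the 8 intact arrays (4 residual degrees of freedom), with eBayes and a mean-variance trend. The contrasts were the average effect of Dscr1 loss over both Apoe labels and its interaction, with Benjamini-Hochberg adjustment at 0.05. Counts and figures used Python 3.11.15, pandas 2.3.3 and matplotlib 3.10.9. The fit was tested on simulated data. The number of arrays limits the precision, and the labels do not say whether replicates were single or pooled animals.

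The alternatives were other pseudocounts, a stricter filter or none, quantile scaling, no trend, every probe set, the replicate number as a block, an Xist covariate, subsets of arrays and leaving out each array. Samples sharing a replicate number deviated together by correlations of -0.04 to 0.10, so the numbers do not pair them. The members and the gene lists were chosen with earlier results of these data known. By rule the text draws on the 10 largest rises and falls, the 10 largest of each among genes well expressed on both sides, and called or marker members of the lists. Genes of the 2 chromosome regions were named after their values were seen. List scores are means over tested members.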

Additional observations from a re-analysis of the deposited data

Results flagged for a closer look

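In sets of 4 arrays a value was picked out where its gap to the nearest other array was large for the set's range. Of 194 sets, 19 held such a value, and chance alone gives about 1 in 20. Apoe read 7.5 on ApoeKO replicate 2, against 776.5 on the nearest other array with Dscr1. Klk13 read 7064.7 on Dscr1KO replicate 2, where the nearest array without Dscr1 read 3074.6.

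Dscr1KO replicate 1 stood apart most often. Sprr1b read 127.6 there and Crct1, a cornification gene, 716.1, both below the other arrays without Dscr1, while Ppp1r3c at 2327.5 and Gkn1, a gastrokine, at 24.5 were above them. Its list scores were also lowest, at 2.70 for wound and stress keratinocyte genes and 1.26 for barrier lipid enzymes.

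Among arrays with Dscr1, ApoeKO replicate 1 was apart for Lce3f (207.3), the adipocyte score (0.62), the lipid uptake score (0.51) and the Gapdh 3' to 5' ratio (1.62). WT replicate 1 was apart for corneal endothelial (0.27) and photoreceptor scores (1.61). WT replicate 2 was apart for oxidative phosphorylation (-0.069) and ribosomal protein scores (-0.18). Among arrays without Dscr1, double KO replicate 1 was apart for photoreceptor (4.92) and clock scores (0.19), and double KO replicate 2 for sex-linked genes (0.63).

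Crygf was picked out because its effect differed between the Apoe labels by the interaction test in limma (6.86, adjusted p = 0.0214).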

How the results depend on the processing

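The average effect gave 3993 calls, and 2571 without both doubtful libraries, 1091 on the arrays with high Xist, and 2132 to 5654 when 1 array was left out. No gene called in both fits had the opposite sign. The interaction gave 1 call, but 0 under the stricter filter (808 at an unadjusted p under 0.05 in limma) and without both doubtful libraries (1217), 2 without a filter, 4 with the higher pseudocount, 47 with Xist as a covariate and 0 to 37 when 1 array was left out. With the replicate block there were 3651 calls for the average and 2 for the interaction. The arrays with low Xist, a setting chosen after seeing the data, gave 4786 calls. The calls of a gene list moved by over 1.5 times for 40 lists on the arrays with high Xist, 19 without WT replicate 2, 18 without ApoeKO replicate 2, 15 without WT replicate 1, 13 under the stricter filter, 12 without ApoeKO replicate 1 and 9 without both doubtful libraries or with the Xist covariate. Each other setting moved 7 or fewer, counted over the members that had passed the filter on low signals. Without that filter all members on the array are counted, and 9 of 15 T and NK genes rose, against 3 of 5.

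Of the 39 genes named by size, 39 kept their direction under every alternative run and 23 stayed past the threshold. They were chosen as called genes with sides that did not overlap. Leaving out arrays or changing the pseudocount could therefore not reverse them, and the kept direction is no check. Some genes named by other rules reversed. Apoe was 0.99 without both doubtful libraries and 0.64 with high Xist, and ran from -2.64 to 0.49 when 1 array was left out. Crygs was 0.21 with high Xist. Rom1 was -0.20 with the Xist covariate and ran from -0.042 to 1.80 when 1 array was left out. Gnat1 was -0.22 with the Xist covariate and -1.31 with low Xist. The cause was not tested. With 2 arrays per genotype and 4 residual degrees of freedom, small changes and signals near background cannot be resolved.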
